A study of Mus musculus with 24 samples.

Results

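Tmem genes, whose symbols stand for transmembrane protein, were followed through a map of Argonaute 2 (AGO2) contacts on messenger RNA in activated mouse CD4+ T cells. Every peak whose gene symbol begins with Tmem was taken, which gave 128 peaks in 45 genes, of 14634 peaks in 4165 genes in the whole table. The Tmem genes made up 1.08% of the genes, 0.875% of the peaks and 0.898% of the reads. The study compared 12 libraries from T cells of miR-155 knockout (KO) C57BL/6 mice with 12 libraries from wild-type (WT) C57BL/6 mice. All cells were CD4+ T cells of spleen and lymph nodes, cultured for 4 days with CD3 and CD28 antibodies at 1 µg/mL and IL-2 at 20 U/mL, and their AGO2 complexes were immunoprecipitated with a rabbit antibody to an AGO2 peptide (HITS-CLIP). In each genotype 6 libraries carried one 3′ linker and 6 the other. Replicate numbers 1 to 6 carried linker 1 in KO and linker 2 in WT cells, and numbers 7 to 12 the reverse, so linker and genotype cannot be told apart within either set. The deposited table pools the libraries of a genotype, so every value below is 1 number per genotype with no replicate error.

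A microRNA guides AGO2 to messenger RNAs mainly through its seed, bases 2 to 8, which pairs with a complementary site, usually in the 3′ untranslated region (3′ UTR) that follows the stop codon. miR-155 is induced when lymphocytes are activated and shapes helper T cell responses. The symbol Tmem is a placeholder given to proteins predicted to cross a membrane, not a family by descent, and its bearers work in membrane lipid handling, the secretory pathway, calcium entry, innate immune sensing, mitochondria and the nuclear envelope. For 9 of the 45 symbols the GENCODE M21 annotation uses other names, among them Pip4p1 for Tmem55b, Pip4p2 for Tmem55a, Saraf for Tmem66 and Emc6 for Tmem93.

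The sequences on which the results turn are the seeds of 5 microRNAs and the sites found in the most-read or most informative Tmem peaks. The mature microRNAs, from RefSeq, are written 5′ to 3′ with the seed in capitals:
miR-155-5p: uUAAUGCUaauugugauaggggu
miR-17-5p: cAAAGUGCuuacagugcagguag
miR-16-5p: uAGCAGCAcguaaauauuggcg
miR-19b-3p: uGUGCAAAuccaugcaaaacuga
miR-27a-3p: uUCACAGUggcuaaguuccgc

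An 8-nt site (8mer) matches bases 2 to 8 of the microRNA and is followed by an A. A 7mer-m8 lacks that A, a 7mer-A1 lacks the match to base 8, and a 6-nt site lacks both. Windows of at most 30 bases follow, taken from the deposited peak sequences on the transcript strand, with the site in capitals and all in lower case where no 7-nt or 8-nt site of the families searched was present. Their positions come from a match to GENCODE M21 transcripts on GRCm38.
Tmem64 peak 4, miR-17 8mer, chr4:15283567-15283596, plus strand: cctataggtgtGCACTTTAgtgtttttgaa
Tmem170b peak 8, miR-155 7mer-A1, chr13:41636689-41636718, plus strand: tcaagctaatttGCATTAAgaattgtgttc
Tmem170b peak 8, miR-17 7mer-m8, chr13:41636713-41636742, plus strand: gtgttcatgtgtGCACTTTtaatttgatgg
Tmem209 peak 1, miR-155 7mer-m8, chr6:30482721-30482750, minus strand: agtccacagaaaAGCATTAcactggatggc
Tmem170b peak 4, no 7-nt or 8-nt site, chr13:41634922-41634946, plus strand: gatctatgtgccaaactttcctttc
Tmem170b peak 6, no 7-nt or 8-nt site, chr13:41635097-41635126, plus strand: gtgttcggtttgttaagctgagtgttctgg
Tmem55a peak 1, miR-15/16 8mer, chr4:14914036-14914065, plus strand: caagttcatttTGCTGCTAggttttcagac
Tmem55b peak 2, miR-15/16 8mer, chr14:50927494-50927523, minus strand: taggaccttgcTGCTGCTAttgcacttcac
Tmem65 peak 5, miR-19 8mer, chr15:58783402-58783431, minus strand: ttggagttttgTTTGCACAtaattactttg
Tmem65 peak 7, miR-19 8mer, chr15:58782694-58782723, minus strand: taacatggtacTTTGCACAgtgtgatttct

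Peaks are numbered here from the stop codon outward, and positions within a 3′ UTR are the deposited ones. The reads are the authors' pooled, scaled reads, recovered from log2(1 + reads). Over all peaks they summed to 374126 in KO and 371088 in WT cells. The knockout was visible in peaks with a 7-nt or 8-nt miR-155 site: the 265 such peaks of the whole table held 1921 reads in KO and 10320 in WT cells, and no row of the table measures miR-155 itself. Of 9 CD4 T cell marker genes, 7 had peaks, with 9318 reads in KO and 7366 in WT cells. The marker lists of B cells (6 genes) and of CD8 and NK cells (4 genes) had no peak, and of 6 myeloid markers Mpeg1 alone had reads, 0 in KO and 122 in WT cells. Whether other cells contributed to a Tmem peak was not tested. Reads on a peak depend on the amount of messenger RNA as well as on AGO2 contact, and these cannot be told apart in this table.

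AGO2 contacts on Tmem messages were concentrated in a few genes. The 45 genes together held 3432 reads in KO and 3260 in WT cells, or 51.3% in KO against 50.2% over the whole table. Of the Tmem reads, 81.1% lay on 6 genes, which were Tmem64, Tmem170b, Tmem55b, Tmem68, Tmem65 and Tmem30a. At the other end, Tmem39b had 0 reads in KO and 1.97 in WT cells. A Tmem gene held a median of 31.6 reads over both genotypes, against 44.9 for all genes, and 8 of the 45 (17.8%) held over 100 reads, against 32.0% of all genes. A single peak was listed for 22 Tmem genes (48.9%), against 40.8% of all genes. Summed over a gene, reads were higher in KO cells for 22 Tmem genes and lower for 23, against 1791 and 2369 of all genes.

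**Figure D1:**
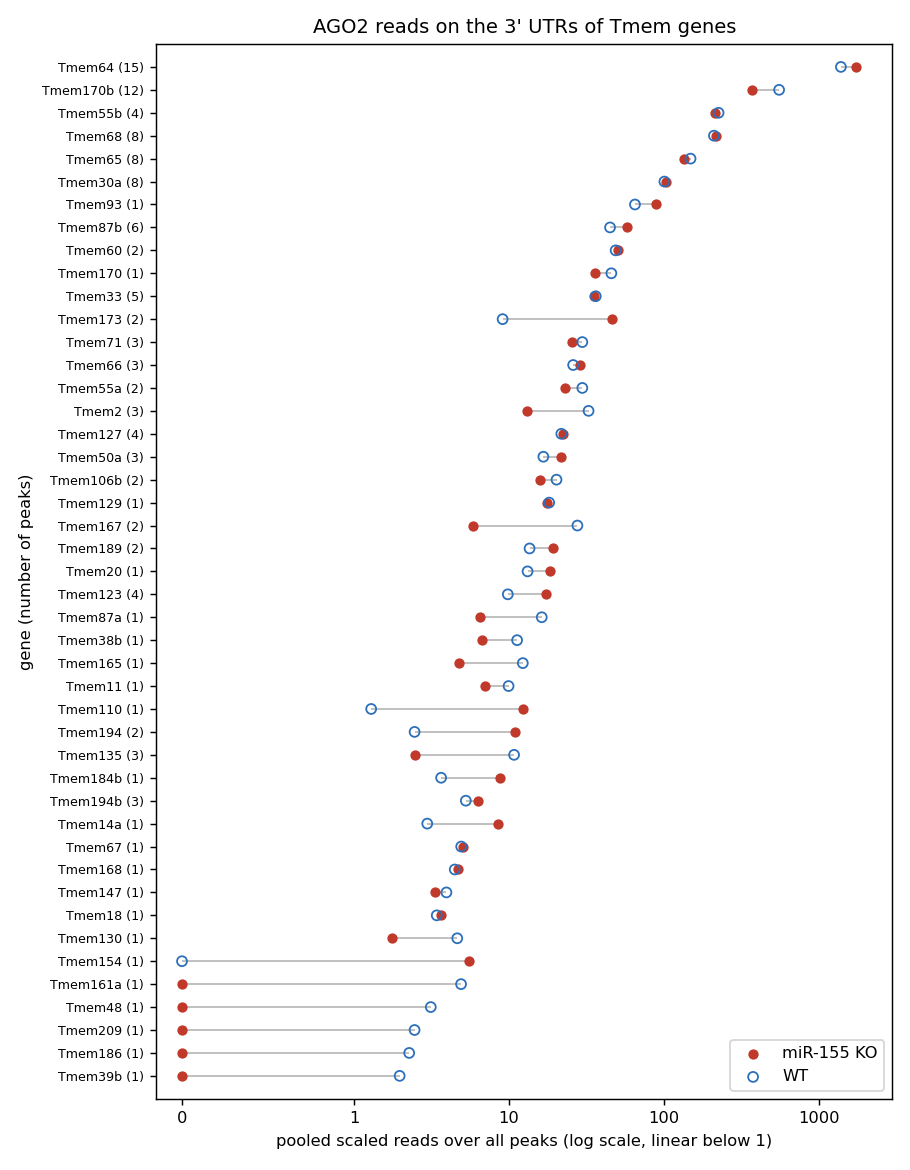
Pooled scaled reads of each Tmem gene, summed over its peaks, in miR-155 KO cells (filled) and WT cells (open), on a log axis that is linear below 1, with the number of peaks in parentheses. Tmem64 stands apart with 1746 reads in KO and 1394 in WT cells, and the 2 genotypes nearly coincide for Tmem55b, Tmem68 and Tmem30a.

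No Tmem peak passed the test for lower binding without miR-155, and 1 passed it for higher binding. At a Benjamini-Hochberg adjusted p below 0.05 over all 14634 peaks, computed from the p-values of the authors' deposited table, 0 of the 128 Tmem peaks were lower in KO cells, where 0.574% of all peaks were. Tmem170b peak 4 was higher in KO cells, where 0.0273% of all peaks were. At an unadjusted p below 0.05 in the authors' deposited table, 0 Tmem peaks were lower in KO cells, against 2.72% of all peaks, and 3 were higher, against 1.48%. Those 3 were Tmem170b peak 4, Tmem68 peak 4 and Tmem173 peak 2, and all were listed at 0 in WT cells. What spread between libraries the authors' p-values reflect is unknown.

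Over all read depths together, the balance of Tmem peaks between the genotypes was close to that of the table. In the authors' deposited table, whose log2 ratio runs WT over KO, so that a negative value means higher in KO, the median Tmem peak stood at 0.18 (quartiles -0.45 and 1.21). The same median over all peaks was 0.20 (quartiles -0.61 and 1.33). By depth, the medians were 1.17 for Tmem and 0.98 for all peaks under 10 reads. From 10 to under 30 reads they were -0.07 and 0.28. From 30 to under 100 reads they were 0.05 and 0.01, and from 100 reads upward -0.08 and -0.1. Reads were higher in KO cells at 53 Tmem peaks and lower at 74, against 6338 and 8255 of all peaks. The remaining Tmem peak, the first of Tmem30a, was listed at 0 in both. KO cells alone were listed at 0 for 21 Tmem peaks (16.4%, against 16.3% of all peaks), and WT cells alone for 12 (9.38%, against 7.59%). The 8 Tmem peaks with over 100 reads lay in 6 genes and had between 38.3% and 58.0% of their reads in KO cells.

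**Figure D2:**
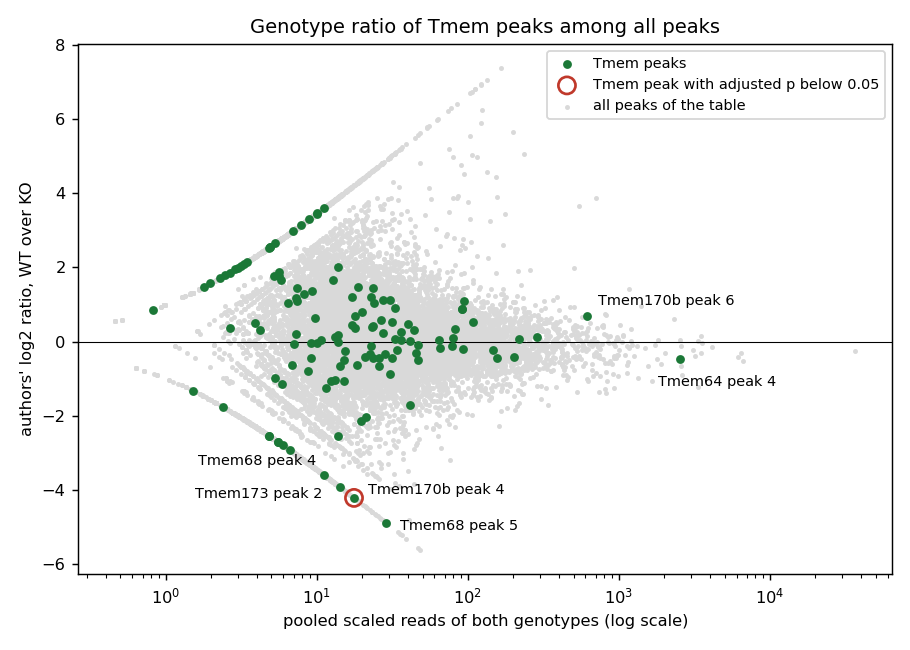
Log2 ratio of WT over KO reads from the authors' deposited table (vertical axis; below 0 is higher in KO) against the pooled scaled reads of both genotypes (log axis) for Tmem peaks (green) and all peaks (grey). The ratios spread widely where reads are few and narrow to between -0.47 and 0.69 for the 8 Tmem peaks over 100 reads. The ringed point is Tmem170b peak 4.

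Among genes of membrane and other lipids, Tmem64 held more reads than any other Tmem gene. The 6 genes of this group had 39 peaks with 2323 reads in KO and 1976 in WT cells. Most of these reads lay on Tmem64, which set the side on which the sum of the group fell. Tmem64 encodes a relative of the endoplasmic reticulum phospholipid scramblase Tmem41b. Its 15 peaks, the most of any Tmem gene, carried 1746 reads in KO and 1394 in WT cells, 46.9% of the Tmem total. Of the 4165 genes it ranked 19 by reads.

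Peak 4 of Tmem64, at 204 to 242 nt of the 3′ UTR in exon 3 of 3, carried 1466 reads in KO and 1060.0 in WT cells. This single contact held 80.5% of the reads of the gene and 37.8% of all Tmem reads, and it ranked 17 among all peaks. It contains the miR-17 8mer printed above, the only 7-nt or 8-nt site found in it for 17 microRNA families. Its log2 ratio of WT over KO was -0.47 in the authors' deposited table, with p = 0.204. Peak 3, upstream of it, had 115 reads in KO and 86.5 in WT cells, and peak 2 had 43.8 reads in KO and 63.4 in WT cells. Peaks 2 to 4 covered 176 nt and held 90.3% of the reads of the gene.

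The remaining 14 Tmem64 peaks together had 279 reads in KO and 334 in WT cells, with 3 higher and 11 lower in KO cells, none of them past either threshold. Without peak 4, all Tmem genes together had 1965 reads in KO and 2200 in WT cells (47.2% in KO), so this 1 peak set the side on which the pooled sum fell. Peaks 8, 9 and 14 of Tmem64 contained a 6-nt miR-155 site. Peak 9 was the most read of them, with 32.1 reads in KO and 59.7 in WT cells. Its log2 ratio of WT over KO was 0.88 and its p 0.162 in the authors' deposited table. Peak 14 had 16.2 reads in KO and 19.6 in WT cells, and peak 8 had 4.44 and 1.47 reads in KO and WT cells. A second 8mer on this message, for miR-23 in peak 10, lay under 19.4 reads in KO and 24.4 in WT cells.

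**Figure D3:**
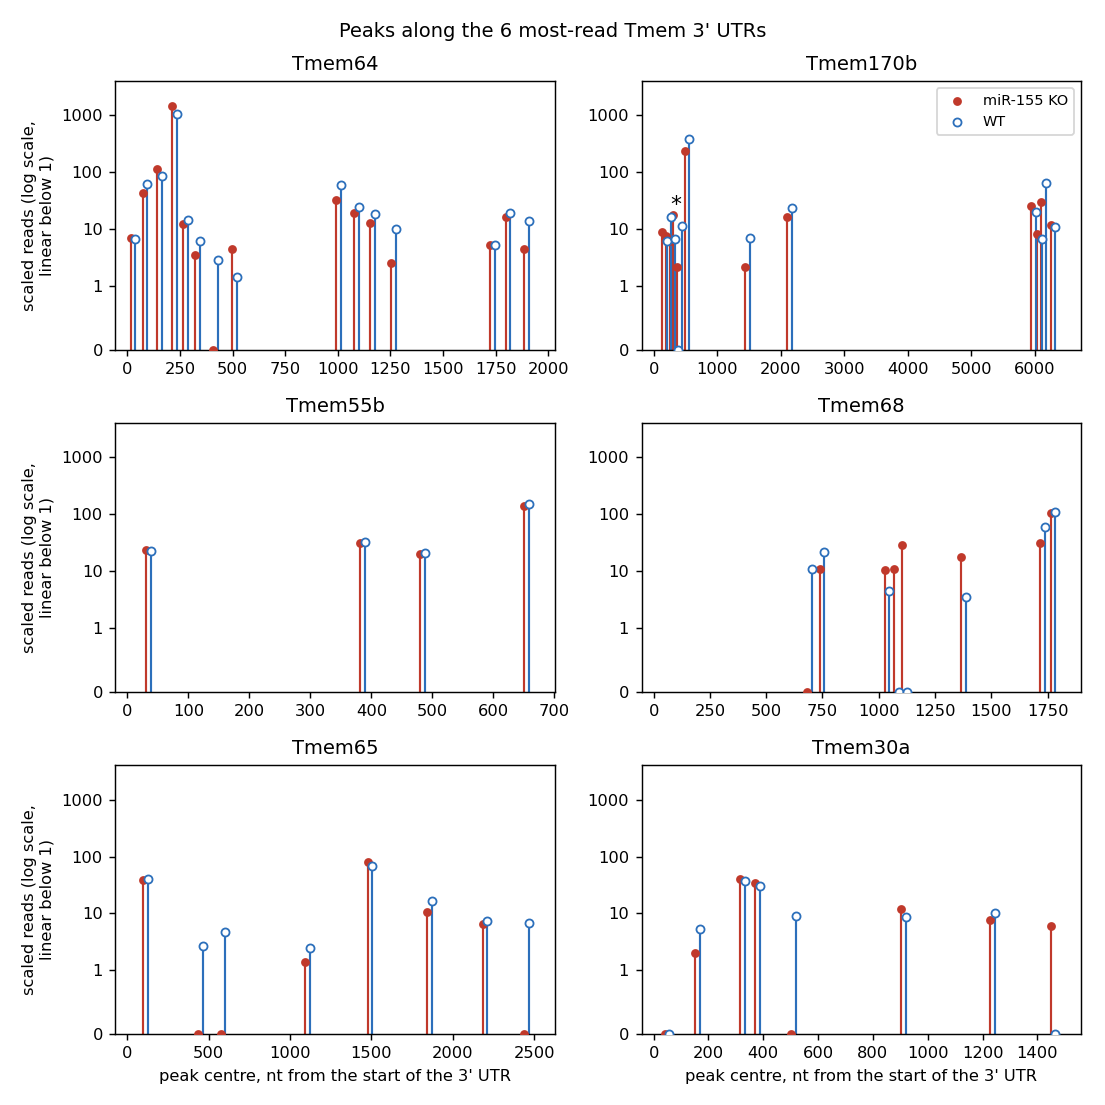
Reads of every peak along the 3′ UTRs of the 6 most-read Tmem genes in miR-155 KO cells (filled, drawn just left of the peak centre) and WT cells (open, just right of it), on a log axis that is linear below 1. The horizontal axis is the distance of the peak centre from the start of the 3′ UTR. Tmem64 peak 4 reaches 1466 reads in KO and 1060.0 in WT cells, and the asterisk marks Tmem170b peak 4, with 17.6 reads in KO and 0 in WT cells.

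The phosphoinositide phosphatases Tmem55b and Tmem55a, which act on phosphatidylinositol-4,5-bisphosphate, both had a miR-15/16 8mer within a peak. Tmem55b had 215 reads in KO and 226 in WT cells over 4 peaks, and its peaks were nearly equal in the genotypes, with 48.1% to 51.5% of reads in KO cells. Peak 2 of Tmem55b, over the miR-15/16 8mer, had 31.6 reads in KO and 32.5 in WT cells. Its most-read peak, number 4, had 139 reads in KO and 150 in WT cells and no site of the families searched. A miR-142-3p 8mer lay in peak 1, with 24.2 reads in KO and 22.8 in WT cells. Tmem55a peak 1, over its own miR-15/16 8mer, had 8.26 reads in KO and 19 in WT cells, with p = 0.773 in the authors' deposited table.

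Tmem68, an acyltransferase of triacylglycerol synthesis, had near-equal sums, 217 reads in KO and 211 in WT cells, made of unequal peaks. Peak 8, its most-read, had 106 reads in KO and 111 in WT cells, and peak 7 had 31.9 reads in KO and 60.0 in WT cells. Peak 4, at 1068 to 1089 nt, had 11.2 reads in KO cells and was listed at 0 in WT cells. Its p was 0.00224 in the authors' deposited table and its Benjamini-Hochberg adjusted p 0.219, so it did not pass. The neighbouring peak 5 had more reads, 28.7 in KO cells against 0 in WT cells, but p = 0.359 in the authors' deposited table. In the opposite direction, peak 1 was listed at 0 in KO cells and at 11.1 reads in WT cells, with p = 0.0634 in the authors' deposited table.

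Tmem30a (CDC50A) is the partner subunit of the flippases that keep phosphatidylserine on the inner leaflet. It had 103 reads in KO and 101 in WT cells over 8 peaks. Peaks 3 and 4, within 306 to 408 nt, were the most read, with 40.8 and 34.7 reads in KO cells and 37.2 and 30.9 reads in WT cells, and neither contained a site of the families searched. Tmem189, the desaturase of plasmalogen synthesis, completed the group with 19.2 reads in KO and 13.6 in WT cells.

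Tmem170b, for which no function is stated here, was the second most read gene and the one Tmem gene with a peak past the adjusted threshold. It had 12 peaks with 373 reads in KO and 556 in WT cells. Peak 4, at 336 to 360 nt, had 17.6 reads in KO cells and was listed at 0 in WT cells. Its p was 9.57e-05 in the authors' deposited table and its Benjamini-Hochberg adjusted p 0.0177. Its log2 ratio of WT over KO was -4.22 in the authors' deposited table, a size that the added pseudocount of 1 sets, since WT cells were listed at 0. No site of the families searched, of 6 nt or longer, lay in this peak, whose sequence is printed above.

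The dominant contact of Tmem170b was peak 6, at 507 to 544 nt, with 237 reads in KO and 382 in WT cells and 66.6% of the reads of the gene. This was the Tmem peak over 100 reads with the lowest share in KO cells, 38.3%, yet its p was 0.849 in the authors' deposited table. It had no 7-nt or 8-nt site and a 6-nt miR-21 site. A further cluster, peaks 9 to 12 at 5930 to 6303 nt, held 19.1% of the reads of the gene, with 75.3 reads in KO and 103 in WT cells. Within it, peak 9 contained sites of 4 families (miR-17, miR-142-5p, miR-30 and miR-27) and had 25.3 reads in KO and 20.1 in WT cells. The miR-17 and miR-142-5p sites of peak 9 overlapped, so they were not separate sites, and lay at the upstream edge of the peak. Peak 11, over a miR-30 8mer, had 29.7 reads in KO and 64.7 in WT cells.

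A 7-nt or 8-nt miR-155 site lay in 2 of the 128 Tmem peaks (1.56%), against 1.81% of all peaks, and none of the 67 miR-155 8mers of the table was in a Tmem peak. A 6-nt site as the longest miR-155 match was found in 3 Tmem peaks (2.34%), against 0.697% of all peaks, and all 3 were the Tmem64 peaks given above. Tmem170b peak 8, with a 7mer-A1 beside a miR-17 7mer-m8, had 16.5 reads in KO and 23.4 in WT cells. Its log2 ratio of WT over KO was 0.48 in the authors' deposited table, with p = 0.874. Tmem209, a nuclear envelope protein, had a miR-155 7mer-m8 in its single peak, which was listed at 0 in KO cells and at 2.46 reads in WT cells, with p = 0.989 in the authors' deposited table. Over all 265 peaks with such a site, the median log2 ratio of WT over KO in the authors' deposited table was 3.16. Both Tmem peaks lay on the same side of 0 as that median and below it. That median includes the 8mers. By class, the median in the authors' deposited table was 2.98 for 7mer-m8 and 2.67 for 7mer-A1 sites. The ratio of Tmem209 peak 1 was 1.79 in the authors' deposited table. The pseudocount sets this value, since KO cells were listed at 0, and it could only be positive.

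Tmem173 (STING), the endoplasmic reticulum sensor of cyclic dinucleotides that drives interferon responses, had more reads in KO cells at both of its peaks. The gene had 46.4 reads in KO and 9.11 in WT cells, or 83.6% in KO. Peak 1, at 203 to 247 nt, had 32.2 reads in KO and 9.11 in WT cells, with p = 0.417 in the authors' deposited table. Peak 2, at 265 to 300 nt, had 14.2 reads in KO cells and was listed at 0 in WT cells. Its p was 0.00987 in the authors' deposited table and its Benjamini-Hochberg adjusted p 0.576, so neither peak passed. The group of immunity, lysosome and mTOR genes also held Tmem127, a tumour suppressor that restrains mTOR signalling, with 22.5 reads in KO and 21.8 in WT cells, and the lysosomal Tmem106b, with 16 reads in KO and 20.3 in WT cells. Together the 3 genes had 84.9 reads in KO and 51.3 in WT cells.

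Genes of the endoplasmic reticulum and Golgi had near-equal sums, 220 reads in KO and 225 in WT cells. They comprised 8 genes with 18 peaks, and none of these peaks was past either threshold. Single genes ran from 17.6% (Tmem167) to 57.8% (Tmem93) of reads in KO cells. The median log2 ratio of WT over KO of the 18 peaks was 0.5 in the authors' deposited table. Tmem93 (EMC6), a subunit of the endoplasmic reticulum membrane protein complex, had 1 peak with 89.5 reads in KO and 65.2 in WT cells, and no 7-nt or 8-nt site. Tmem87b, a relative of the Golgi protein Tmem87a, had 57.6 reads in KO and 45.0 in WT cells over 6 peaks, with miR-142-3p sites in peaks 1 and 2 and a miR-15/16 8mer in peak 3. Tmem33, an endoplasmic reticulum membrane protein, had 35.2 reads in KO and 36.4 in WT cells over 5 peaks. The gene of the group with the lowest share in KO cells was Tmem167 (Kish-A, a Golgi protein of the secretory pathway), with 5.90 reads in KO and 27.7 in WT cells.

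The 3 mitochondrial genes had 143 reads in KO and 161 in WT cells, most of them on Tmem65, an inner mitochondrial membrane protein. Tmem65 had 135 reads in KO and 149 in WT cells over 8 peaks. Of these, peak 5 had 78.7 reads in KO and 67.3 in WT cells and contained the first of the miR-19 8mers printed above. The other miR-19 8mer, in peak 7, lay under 6.46 reads in KO and 7.42 in WT cells, so the same 8 bases were found under peaks of very different depth on 1 message. Peak 1, with no site, had 38.5 reads in KO and 41.1 in WT cells. The Tmem65 peaks 2, 3 and 8 were listed at 0 in KO cells, with 2.64, 4.80 and 6.89 reads in WT cells.

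The 3 calcium and cation genes had 47.8 reads in KO and 38.6 in WT cells, led by Tmem66 (SARAF), which slows store-operated calcium entry and had 28.6 reads in KO and 26.0 in WT cells. Tmem110 (STIMATE), a partner of the calcium sensor STIM1, had 12.4 reads in KO and 1.29 in WT cells at its 1 peak, with p = 0.269 in the authors' deposited table. Tmem38b (TRIC-B), an intracellular cation channel, had 6.69 reads in KO and 11.3 in WT cells. Parts of its peak sequence, with a GC content of 55.4%, were not compared with ribosomal RNA or repeats. Its reads, counted in the sum of the group, may therefore not come from its message. The 3 genes of the cell surface and cilium had 35.5 reads in KO and 47.4 in WT cells, and among them the hyaluronidase Tmem2 had 13.0 reads in KO and 32.7 in WT cells. A let-7 8mer lay in its most-read peak, number 2, with 9.20 reads in KO and 21.1 in WT cells and p = 0.283 in the authors' deposited table. The 15 genes without a function stated here had 33 peaks with 561 reads in KO and 747 in WT cells, most of them on Tmem170b. Others of these were Tmem60, with 50.7 reads in KO and 48.9 in WT cells, Tmem170, with 35.8 in KO and 45.9 in WT cells, and Tmem71, with 25.6 in KO and 29.8 in WT cells.

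Along the 3′ UTR, the median start of the Tmem peaks was 627 nt into the 3′ UTR (quartiles 259.5 and 1280 nt), against 880 nt over all peaks. Of the Tmem peaks, 55 (43.0%) began within 500 nt, against 33.7% of all peaks, and 6 (4.69%) beyond 3000 nt, against 11.2%. On the GENCODE M21 annotation, 123 Tmem peaks could be placed within an annotated 3′ UTR, and 54 of them (43.9%) lay in its first 25%, against 29.5% of all placed peaks. The last 25% held 21 (17.1%), against 27.7%. Counted once per gene, the annotated 3′ UTRs had a median of 2056 nt for Tmem genes and 1700 nt for all genes with a placed peak. The positions are counted per peak, and whether 3′ UTR length bears on them was not tested. Without Tmem64 and Tmem170b, which hold the most peaks, 40.6% of the remaining 96 placed Tmem peaks lay in the first 25% and 17.7% in the last. Of the peaks of other symbol groups, 26.7% of 225 placed peaks of Slc genes, the solute carriers, and 28.5% of those of Zfp genes, the zinc finger proteins, lay in the first 25%. These shares are descriptions of peaks that cluster on genes, and their difference was not tested.

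Peak length and base composition were like those of the table. Tmem peaks had a median length of 40 nt, against 39 nt, and a median GC content of 36.6%, against 36.8%. The AU-rich pentamer ATTTA, searched on the transcript strand alone, was present in 13 Tmem peaks (10.2%), against 11.6% of all peaks. None of the 128 sequences, each taken whole with its flanks, had an exact match in an annotated transcript of another gene. Matches with a mismatch or to a part of the sequence were not searched, so repeats and related transcripts could be missed.

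A 7-nt or 8-nt site of at least 1 of the 17 families, searched on the transcript strand, lay in 50 Tmem peaks (39.1%), against 36.9% of all peaks, and 17 (13.3%) had an 8mer, against 12.5%. Peaks with a site held 56.6% of the Tmem reads, against 47.4% over the table, but 30.4% once Tmem64 peak 4 was left out. The most-read peaks of the table stayed in its 47.4%, so that value is no like comparison for the 30.4%. The 60 pairs of a site and a peak comprised 17 8mers, 25 7mer-m8 and 18 7mer-A1 sites. Their median absolute distance from the peak centre was 8.5 nt, and 38 lay within 10 nt, a measure that the search within the peak and its flanks bounds from the start. Tmem peaks with a site had a median log2 ratio of WT over KO of -0.03 in the authors' deposited table, and those without one 0.37. The same medians in the authors' deposited table were 0.15 and 0.23 over all peaks, and 0.02 and 0.42 for the Slc genes. For the Zfp genes the order was reversed, with 0.3 for peaks with a site and 0.03 for those without.

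The families most often found were miR-15/16 and miR-27. A miR-15/16 site lay in 9 Tmem peaks of 9 genes (7.03%, against 4.58% of all peaks), with 91.2 reads in KO and 81.7 in WT cells. Among the 9 were pairs of related genes, the phosphatases Tmem55a and Tmem55b, each with an 8mer, and the inner nuclear membrane protein Tmem194 (NEMP1) with its relative Tmem194b (NEMP2), each with a 7mer-m8. The Tmem194 peak had 6.61 reads in KO and 0 in WT cells, and the Tmem194b peak 0 in KO and 5.27 in WT cells. Sharing was not general among relatives, since Tmem87b had a miR-15/16 8mer and Tmem87a had no miR-15/16 site. A miR-27 site lay in 8 Tmem peaks of 6 genes (6.25%, against 3.59%), with 89.7 reads in KO and 46.0 in WT cells. Their median log2 ratio of WT over KO was -1.59 in the authors' deposited table, against 0.04 for all miR-27 peaks, and none of the 8 passed either threshold. Of the 8, Tmem123 peak 1, Tmem194 peak 2, Tmem68 peak 5 and Tmem87b peak 3 were listed at 0 in WT cells, so the pseudocount sets their ratios. The other miR-27 peaks had log2 ratios of WT over KO between -0.63 (Tmem194 peak 1) and 1.04 (Tmem170b peak 2) in the authors' deposited table. Sites of the miR-17 family lay in 6 Tmem peaks (4.69%, against 3.71%) with 1513 reads in KO and 1117 in WT cells, nearly all of them on Tmem64 peak 4. Without the 6-nt flanks the miR-17 share was 3.12% of Tmem peaks, against 3.43% of all peaks. The miR-27 share was then 4.69%, against 3.21%, and the miR-15/16 share 7.03%, against 4.39%. No Tmem peak had a miR-181 site, which 1.79% of all peaks had. With 0 to 9 peaks per family, these shares are descriptions and were not tested.

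**Figure D4:**
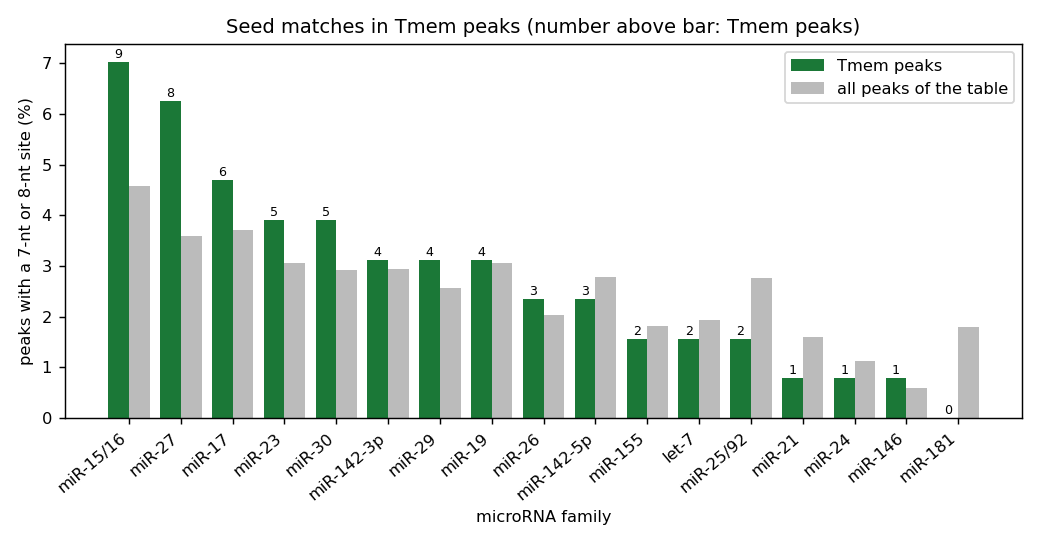
Share of peaks with a 7-nt or 8-nt site for each of 17 microRNA families among the 128 Tmem peaks (green, with the number of Tmem peaks above the bar) and among all 14634 peaks (grey), in percent. The miR-15/16 family is the most frequent in Tmem peaks with 9 peaks (7.03%), and miR-155 has 2 (1.56%).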

How the data were processed

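The authors' deposited table gives, per the file headers, log2 reads of each genotype, their log2 ratio (WT over KO) and a p-value for differential binding for each 3′ UTR peak. Bowtie 0.12.7 and the mm9 build are named in the submitters' processing notes. How peaks were called, duplicates handled, reads scaled and p-values computed is not stated there, and the depth of single libraries is unknown. The deposited log2 values were taken as log2(1 + reads), scaled and summed over the libraries of a genotype; the ratio equalled their difference to within 6e-05. The pseudocount understates changes of peaks with few reads.

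The authors' p-values were adjusted by Benjamini-Hochberg over all 14634 peaks, with a threshold of 0.05. Sites were searched in the peak with its 6-nt flanks, for RefSeq microRNAs (GRCm38.p6). Peaks were placed by exact match on GENCODE M21 (GRCm38), which placed 124 of 128. The site search and adjustment were tested on simulated data. The genes named were the 15 with most reads, the 5 with most peaks, and any with an unadjusted or adjusted p below 0.05 or a 7-nt or 8-nt miR-155 site (16 genes); others were chosen after their values were seen. The members and lists, roles included, were chosen with earlier results of these data known. Python 3.11.15, NumPy 2.4.6, pandas 2.3.3 and Matplotlib 3.10.9 were used.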

Additional observations from a re-analysis of the deposited data

How the results depend on the processing

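No paired analysis was possible because the deposited table pools the libraries of each genotype, which also prevents leaving out single replicates. The 1 Tmem peak called higher in KO cells, Tmem170b peak 4, was not called at an adjusted p below 0.01 (0 peaks), among peaks with reads in both genotypes (0 peaks, since WT cells were listed at 0 there) or by Bonferroni adjustment (0 peaks). No peak was called lower in KO cells under any of these settings. The KO share of the pooled Tmem reads was 51.3%, and it was 47.2% without the most-read peak and 47.5% without the most-read gene, both over Tmem64. Counting 8-nt sites alone brought the share of Tmem peaks with a miR-155 site to 0%, against 1.56%. Counting 6-nt sites as well brought it to 3.91%. The median log2 ratio of WT over KO was 0.18, and it was 0.04 for peaks of at least 10 reads, 0.09 without the pseudocount for peaks with reads in both genotypes, and 0.11 without Tmem64. Sites of any family lay in 39.1% of Tmem peaks, in 36.7% without the flanks and in 34.4% without miR-15/16. The median start was 627 nt, and 662 nt for peaks of at least 10 reads. The Bonferroni adjustment, the sum without the most-read gene and the family sites without miR-15/16 were chosen after seeing the data. With a median of 14.0 reads over both genotypes per Tmem peak and no values per library, the precision behind single peaks cannot be given.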

Other observations

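In Tmem68, peaks 3 to 6 had more reads in KO than in WT cells. Peaks 3 to 5, a stretch of 129 nt from 1006 to 1134 nt of the 3′ UTR, had 50.5 reads in KO and 4.57 in WT cells, and peak 6, at 1360 to 1397 nt, had 17.6 reads in KO and 3.52 in WT cells. Peaks 7 and 8, within 1716 to 1794 nt, had 137 reads in KO and 171 in WT cells. These peaks were chosen after their values were seen, and the contrast between them was not tested. Peak 5 contained a miR-27 7mer-m8 and peak 3 a miR-19 7mer-m8.

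The authors' p-values did not follow the pooled reads alone. Of 4 Tmem peaks listed at 0 in WT cells with at least 10 reads in KO cells, 3 had p below 0.05 in the authors' deposited table, and the one with the most reads, Tmem68 peak 5, had p = 0.359. Over the whole table, 47 of 183 such peaks (25.7%) had p below 0.05 in the authors' deposited table. Peaks selected by reads in 1 genotype alone favour small p-values. The 4 Tmem peaks, with Tmem68 peaks 4 and 5 among them, are too few to set against that share, and the difference was not tested. In the opposite direction, 167 of 462 peaks (36.1%) listed at 0 in KO cells with at least 10 reads in WT cells had p below 0.05 in the authors' deposited table, and neither of the 2 Tmem peaks among them, Tmem68 peak 1 and Tmem2 peak 3, had.

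Tmem194, Tmem194b, Tmem209 and Tmem48 (NDC1, a membrane nucleoporin) had 7 peaks with 17.3 reads in KO and 13.3 in WT cells, and 6 of the 7 had a 7-nt or 8-nt site, against 39.1% of Tmem peaks and 36.9% of all peaks. These genes were grouped with results of these data known, and the difference was not tested. Tmem194 had 11.0 reads in KO and 2.46 in WT cells, with a miR-27 site in both of its peaks.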
